A study of Homo sapiens with 6 samples.

Results

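The genes described here build and load the MCM helicase at replication origins. They are the 6 subunits of the hexamer (MCM2, MCM3, MCM4, MCM5, MCM6 and MCM7) and 4 factors that load, restrain or activate it (CDC6, CDT1, GMNN and MCM10). They were taken by symbol, and all 10 were among the 26372 genes of the deposited table. Polyadenylated RNA of BE(2)-M17, an established line of human neuroblastoma, was sequenced in 3 control libraries and in 3 libraries made after knockdown of GOMAFU, a long non-coding RNA whose row in the table is MIAT. Replicates were numbered 2, 3 and 4 in both groups, and nothing in the labels says that they came from separate cultures, so p-values measure the spread between these libraries, which may be technical. The labels describe transfection of 100 pmol of a small RNA with a lipid reagent, but not what the control cells received. The series concerns miR-137 and GOMAFU in neuron differentiation.

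As background, an origin is licensed when the origin recognition complex, CDC6 and CDT1 load MCM2-7 onto DNA as an inactive ring, which later becomes the core of the replicative helicase. Loading is limited to the time before S phase: geminin (GMNN) binds CDT1, and CDT1 is also destroyed once replication starts. Most of these genes are transcribed late in G1 under E2F transcription factors, and they are shut down when cells leave the cycle to differentiate, so their transcripts are widely used as signs of proliferation.

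The 8 of these genes that had a promoter window share E2F-type sequence, which the choice of the genes did not use. RefSeq windows (GRCh38.p14) of 250 bases before to 50 after a start matched 8 of the 10 genes by symbol; MCM4 and MCM5 had none. Each window was searched on both strands for the E2F consensus, spelled out as TTTGGCGC, TTTCGCGC, TTTCCCGC and TTTGCCGC, and for the variant TTTGGCGG, with overlapping matches counted as 1 site. The letters were settled after the sequences had been seen, so the number of matches is a description and not a test. All 8 genes had a match in at least 1 window, as did 4.72% of the 27305 genes with a window. The consensus was found in 7 of the 8, and MCM10 had the variant alone. A CCAAT sequence, common in promoters, was in at least 1 window of 6 of the 8 genes, and of 39.7% of all genes with a window. A match describes letters and is not a measured binding site. The 4 windows below show the kinds of match found, with the matches in capitals; they are from the most abundant hexamer transcript, from the gene with a repeated match, from a loading factor and from the member with no overlap between the groups.
MCM3, minus strand, chr6:52284693-52284992: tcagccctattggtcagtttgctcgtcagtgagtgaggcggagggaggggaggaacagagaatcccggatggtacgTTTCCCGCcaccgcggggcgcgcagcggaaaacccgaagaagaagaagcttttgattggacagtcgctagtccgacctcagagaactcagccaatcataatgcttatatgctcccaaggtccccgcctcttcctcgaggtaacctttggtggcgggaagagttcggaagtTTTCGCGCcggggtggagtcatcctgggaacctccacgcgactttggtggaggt
MCM6, minus strand, chr2:135876394-135876693: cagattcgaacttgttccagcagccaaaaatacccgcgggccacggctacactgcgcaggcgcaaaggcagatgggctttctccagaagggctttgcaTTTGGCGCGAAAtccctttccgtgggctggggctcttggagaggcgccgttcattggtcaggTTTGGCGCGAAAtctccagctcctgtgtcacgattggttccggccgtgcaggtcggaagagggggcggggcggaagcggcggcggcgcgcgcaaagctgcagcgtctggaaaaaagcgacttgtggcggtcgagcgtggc
CDC6, plus strand, chr17:40287629-40287928: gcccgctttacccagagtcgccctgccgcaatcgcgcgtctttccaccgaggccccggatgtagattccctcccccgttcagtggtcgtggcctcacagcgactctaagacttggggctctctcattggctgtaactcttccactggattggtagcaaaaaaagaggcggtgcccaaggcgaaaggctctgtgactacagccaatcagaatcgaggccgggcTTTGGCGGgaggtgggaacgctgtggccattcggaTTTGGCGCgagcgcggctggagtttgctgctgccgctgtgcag
CDT1, plus strand, chr16:88803539-88803838: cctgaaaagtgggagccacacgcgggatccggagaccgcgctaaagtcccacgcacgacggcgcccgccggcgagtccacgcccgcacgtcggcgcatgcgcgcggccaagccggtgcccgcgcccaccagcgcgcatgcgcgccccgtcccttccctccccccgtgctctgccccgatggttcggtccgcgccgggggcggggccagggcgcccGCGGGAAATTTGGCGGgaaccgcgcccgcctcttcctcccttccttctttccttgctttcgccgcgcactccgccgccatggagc
MCM6 holds the same match at 2 places before the start, and each reads as the consensus on both strands. CDC6 and CDT1 each hold a consensus match and a variant match within the bases around the start.

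MCM7 carries a set of microRNAs in an intron, so its transcript is also their host. In all 4 of the GENCODE basic transcripts of MCM7 that span them, miR-106b, miR-93 and miR-25 lie between exons. They are shown because the first pair listed share the seed (bases 2 to 8, in capitals), while miR-25 has another.
miR-106b-5p: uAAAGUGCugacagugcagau
miR-93-5p: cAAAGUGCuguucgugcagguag
miR-25-3p: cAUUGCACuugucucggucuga
Polyadenylated libraries do not measure the mature microRNAs, and the rows MIR106B, MIR93 and MIR25 were listed at 0 in every library.

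The knockdown was visible in MIAT, which was lower in each knockdown library than in any control. It was listed at 5.38, 5.96 and 8.57 FPKM (fragments per length of transcript, scaled by the mapped total of the library) in control replicates 2, 3 and 4. Knockdown replicates 2, 3 and 4 had 1.27, 1.32 and 3.21; the same order of replicates is used throughout. On average 29.2% of the control level remained (exact two-sided permutation test, p = 0.1, the smallest value that 3 against 3 libraries allow). Knockdown replicate 4 stood apart from the other libraries, correlating with them at 0.940 to 0.956 across genes. The summed level of 10 interferon-stimulated genes was 29.8 to 32.5 FPKM in the controls and 388, 59.0 and 7969 FPKM in knockdown replicates 2, 3 and 4. Of 12 markers of sympathetic neuroblastoma 10 averaged at least 1 FPKM, and TH, the enzyme that starts catecholamine synthesis, did not; the 12 summed to 6259 to 6519 FPKM in controls and to 5398 to 5854 FPKM after knockdown. Of 8 markers each, 4 fibroblast, 1 immune and 2 epithelial genes averaged at least 1 FPKM. Their summed levels were 132 to 161, 1.48 to 2.24 and 3.51 to 6.40 FPKM in controls and 150 to 164, 1.64 to 3.46 and 4.53 to 5.46 FPKM in knockdown libraries. COL1A2, CD3E, KRT5, KRT8 and KRT14 were at 0 throughout. The 4 expressed fibroblast markers were DCN (51.5 to 77.9 FPKM over all libraries), THY1 (51.0 to 62.0), PDGFRB (15.4 to 31.7) and LUM (6.885 to 13.85). The part of these differences in the values that follow was not tested beyond the leave-out values given.

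All 10 licensing transcripts were expressed, and none passed the test for a difference between knockdown and control cells. Values were compared as log2(FPKM + 1) with limma over the 12164 genes that averaged at least 1 FPKM, with Benjamini-Hochberg adjustment over all of them and a threshold of 0.05. Called genes made up 0% of the genes tested, and 0 of 10 members were called (adjusted p = 0.9998 for each). MIAT, the target of the knockdown, was not called either (difference -1.42, adjusted p = 0.9998, limma). The lack of a call for a member therefore does not show that its level was unchanged. At an unadjusted p under 0.05, 263 genes (2.16%; 0.97% higher and 1.19% lower) but 0 members were found. The fitted difference was above 0 for 4 members and below 0 for 6, with a median of -0.011 on the log2 scale, against -0.0081 over all genes tested. A difference smaller than 0.1 was fitted for 8 of the 10, and for 63.8% of all genes tested. The coefficient of variation over the 6 libraries had a median of 5.93% for the members and 8.43% for the 4033 genes in the same range of mean level. In bulk RNA, fewer cycling cells and less RNA per cycling cell cannot be told apart.

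**Figure D1:**
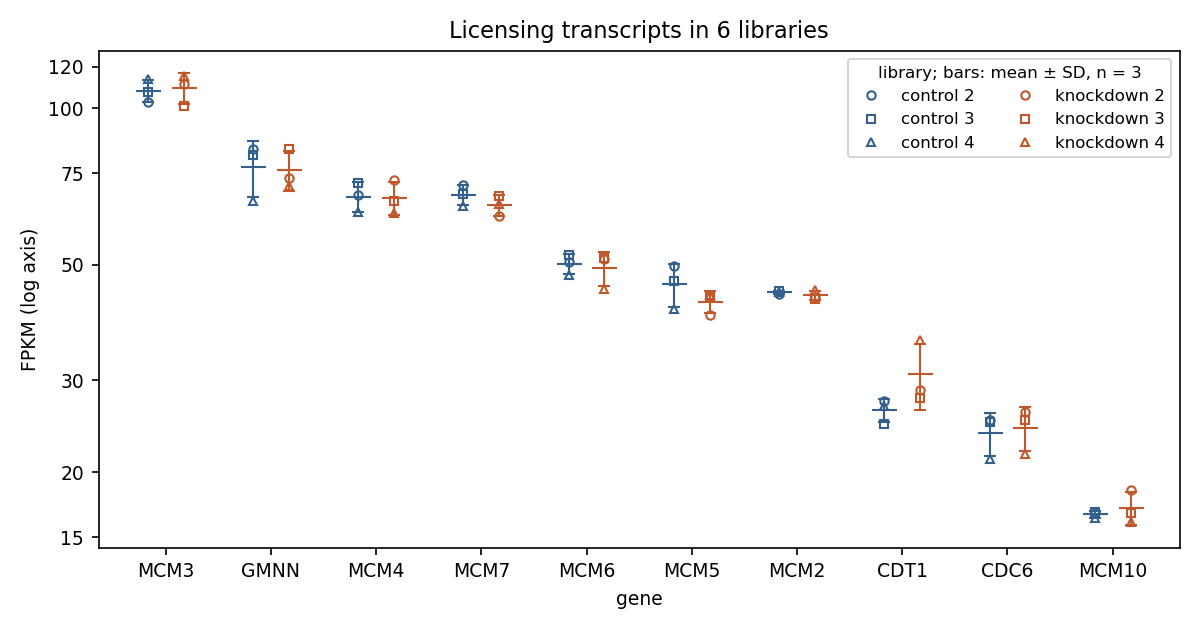
FPKM on a log axis of the 10 licensing genes, ordered by mean level, in 3 control (blue) and 3 knockdown (orange) libraries, with the mean ± SD of each group. The ranges of the groups overlap for every gene except CDT1, whose knockdown values of 27.7 to 35.9 lie above the controls' 24.8 to 27.3.

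The hexamer subunits did not have equal transcript levels, although the protein ring holds 1 copy of each. Per transcript length, MCM3 was the most abundant. It stood at 103, 108 and 113 FPKM (controls) against 111, 101 and 115 FPKM (knockdown). The groups overlapped throughout that range, and no other member reached the level of MCM3 in any library. MCM3 made up 26.6% to 30.6% of the summed FPKM of the 6 subunits. Its difference was 0.015 on the log2 scale (SE 0.08, 95% interval -0.18 to 0.21).

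MCM4 and MCM7 shared a level below MCM3. MCM4, which with MCM6 and MCM7 forms the subcomplex with helicase activity of its own, was at 68.0, 71.8 and 63.1 FPKM (controls) against 72.6, 66.4 and 62.8 FPKM (knockdown). MCM7 was at 71.0, 68.3 and 65.0 FPKM (controls) against 61.9, 67.8 and 65.5 FPKM (knockdown). The values of these genes ran through each other, with MCM4 above MCM7 in 2 of 6 libraries, and in neither did the groups separate. MCM7 reached its lowest value in knockdown replicate 2. Its first bases overlap AP4M1 on the opposite strand, as those of MCM2 overlap TPRA1, and strand handling is not stated, so reads there cannot be told apart. The difference was -0.0081 for MCM4 (SE 0.09, 95% interval -0.21 to 0.20) and -0.064 for MCM7 (SE 0.07, 95% interval -0.24 to 0.11).

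MCM6 followed in the order of levels and lay above MCM5 in each library. It was at 50.6, 52.2 and 47.9 FPKM (controls) against 51.2, 51.6 and 44.9 FPKM (knockdown). Its difference was -0.030 (SE 0.08, 95% interval -0.23 to 0.17), and both libraries numbered 4 gave the lowest values.

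MCM2 was the steadiest member. This subunit, with a histone-binding tail, was at 44.0, 44.6 and 44.3 FPKM (controls) against 43.3, 43.0 and 44.7 FPKM (knockdown), a coefficient of variation of 1.54% over all 6. The group means, 44.3 ± 0.27 and 43.7 ± 0.89 FPKM (SD, n = 3 each), differed by -0.019 on the log2 scale (95% interval -0.17 to 0.13).

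MCM5 had the fitted difference furthest below 0 among the members, and its groups overlapped. It was at 49.7, 46.6 and 41.2 FPKM (controls) against 40.1, 43.5 and 43.7 FPKM (knockdown). Control replicate 4 lay below 2 of the knockdown libraries, while the other controls lay above all 3. The means were 45.9 ± 4.33 and 42.4 ± 2.01 FPKM (SD, n = 3 each), the second 92.6% of the first, with a difference of -0.11 (SE 0.09, 95% interval -0.32 to 0.11). Without control replicate 4 the difference was -0.18, and without control replicate 2 it was -0.046. Neither passed the threshold.

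Summed over the hexamer, the level was 386, 391 and 375 FPKM in the controls and 380, 373 and 377 FPKM in the knockdown libraries. The mean after knockdown was 98.1% of that in controls. To see whether 1 subunit moved against its partners, each was divided by the geometric mean of the other 5 in the same library, a ratio that does not depend on how a library is scaled. For MCM5 the log2 ratio was -0.37, -0.49 and -0.61 in the controls and -0.68, -0.54 and -0.51 in the knockdown libraries. The group means, -0.49 and -0.58, differed by -0.087 (exact two-sided permutation test, p = 0.4; 0.84 adjusted over the 6 subunits). The change of the ratio lay between -0.035 and 0.062 for the other 5 subunits (exact permutation p from 0.5 to 1; the smallest p this design allows is 0.1). The spread of the ratio between replicates was as large as these differences.

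**Figure D2:**
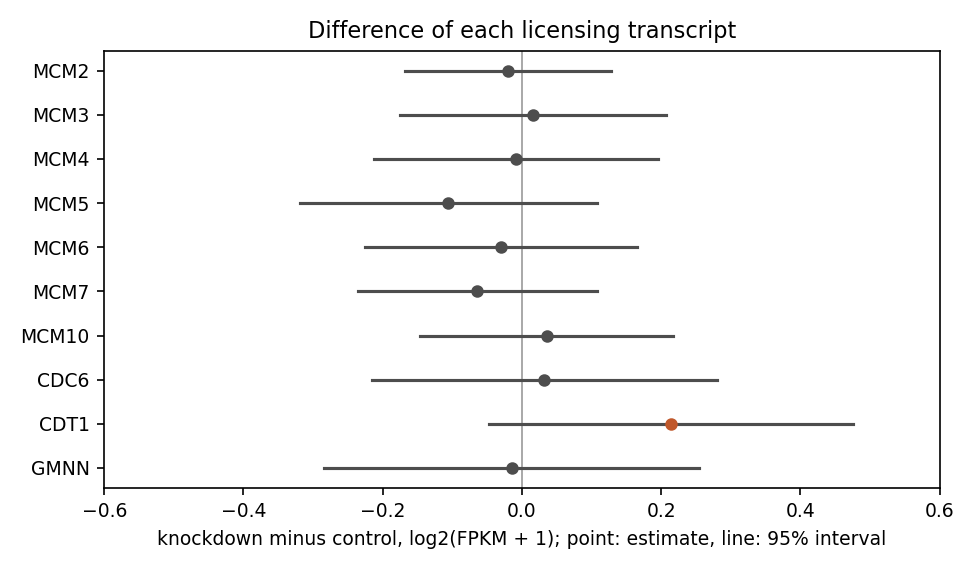
Knockdown minus control on the log2(FPKM + 1) scale for each member, with the limma estimate as a point and its 95% interval as a line; orange marks CDT1, the member whose groups did not overlap. Every interval crosses 0, and the estimates run from -0.11 for MCM5 to 0.21 for CDT1.

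Among the loading factors, CDT1 was the member with the largest fitted difference. CDT1 brings the MCM ring to the origin, and excess CDT1 causes DNA to be licensed again in the same cycle. It was at 27.3, 24.8 and 26.8 FPKM (controls) against 28.8, 27.7 and 35.9 FPKM (knockdown). All 3 knockdown values lay above the controls, by a small margin in replicates 2 and 3. This made 1 of 10 members higher with no overlap, against 4.01% of all genes tested, and 0 of 10 lower, against 4.35% (8.36% in either direction). The means were 26.3 ± 1.34 and 30.8 ± 4.46 FPKM (SD, n = 3 each), and the difference was 0.21 (SE 0.11, 95% interval -0.05 to 0.47; unadjusted p = 0.0939 and adjusted p = 0.9998, limma). The highest value came from knockdown replicate 4, the library with the highest interferon-stimulated genes. Without it the difference was 0.10.

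Geminin, the inhibitor of CDT1, showed no such separation. GMNN was at 83.4, 81.4 and 66.2 FPKM (controls) against 73.5, 83.6 and 70.9 FPKM (knockdown), and its difference was -0.015 (SE 0.11, 95% interval -0.28 to 0.25). The control values alone spanned most of the range of all 6 libraries. The ratio of CDT1 to GMNN, formed after the values were seen, was 0.328, 0.304 and 0.404 in the controls and 0.391, 0.332 and 0.507 in the knockdown libraries. These ratios overlapped between the groups.

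CDC6, the ATPase that joins the origin recognition complex before the ring is loaded, was at 25.2, 24.9 and 21.2 FPKM (controls) against 26.1, 25.2 and 21.7 FPKM (knockdown). Within each group replicate 4 gave the low value, and the difference between the groups was 0.032 (SE 0.10, 95% interval -0.22 to 0.28). MCM10, which acts when the loaded ring is turned on and is no part of it, was the least abundant member, at 16.7, 16.8 and 16.3 FPKM (controls) against 18.5, 16.7 and 16.0 FPKM (knockdown). Its difference was 0.036 (SE 0.08, 95% interval -0.15 to 0.22). By level the members ran from MCM3 through GMNN, MCM4, MCM7, MCM6, MCM5, MCM2, CDT1 and CDC6 to MCM10. Neighbours in that order had separate ranges only between MCM3 and GMNN, MCM7 and MCM6, MCM2 and CDT1, and CDC6 and MCM10.

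The libraries numbered 4 differed from the rest in both groups, across the genes tested and not only in the licensing genes. The control and the knockdown library of that number held the lowest pair of values for 5 of 10 members (MCM4, MCM6, MCM10, CDC6 and GMNN) and the highest pair for MCM3. Over all genes tested, they held the lowest pair for 24.5% and the highest pair for 21.2%. Libraries numbered 2 held the highest pair for CDC6, against 3.36% of genes, and those numbered 3 for MCM6, against 5.23%. Neither number held the lowest pair for any member, against 4.14% and 3.63% of genes. The median of the 10 members lay at 0.033, 0.022 and -0.066 (controls) against 0.035, 0.0016 and -0.058 (knockdown), each measured from the control mean. Control replicate 4 had no rise of interferon-stimulated genes, with a median of -0.04 for the 9 that were tested, whereas knockdown replicate 4 had a median of 7.81. Their part in the members' values was not tested.

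**Figure D3:**
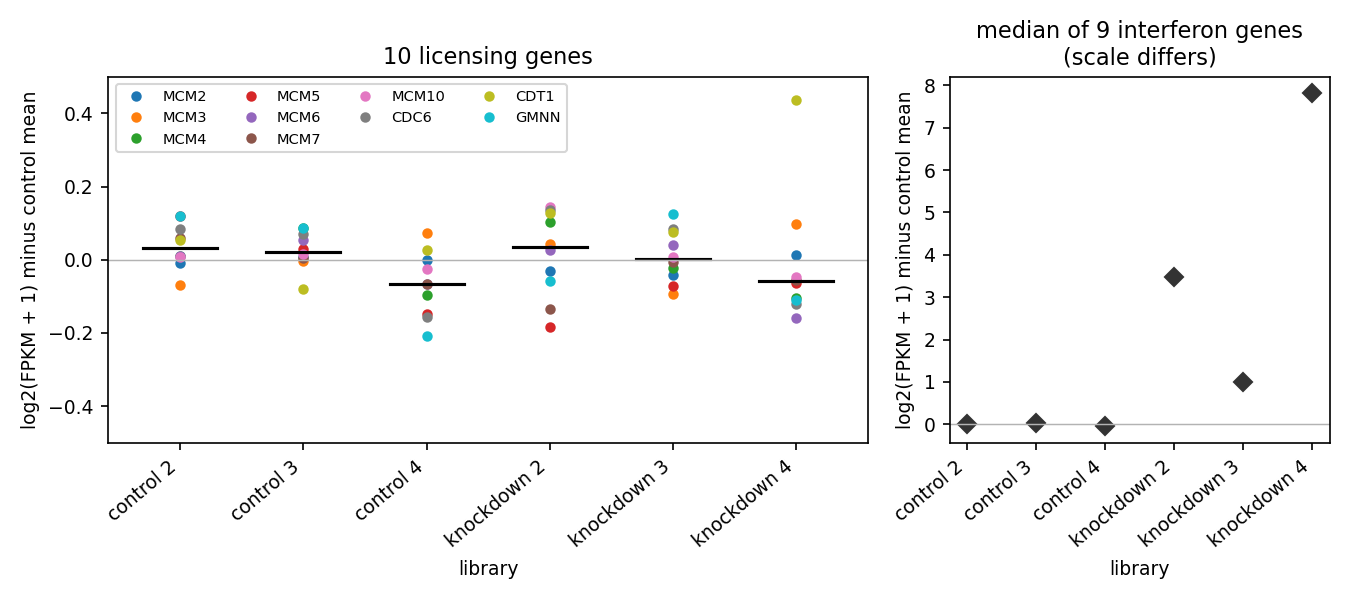
Left, log2(FPKM + 1) minus the control mean for the 10 members in each library, with their median as a black bar; right, the median of 9 interferon-stimulated genes on a wider scale. The members' medians lie between -0.07 and 0.04 in all 6 libraries, while the interferon median reaches 7.81 in knockdown replicate 4.

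MCM5 lies on chromosome 22, at 35400063 to 35425430 on the plus strand (GENCODE release 29, GRCh38), the chromosome that also carries MIAT at 26646428. Its partners lie elsewhere: MCM2 on chromosome 3, MCM3 on 6, MCM4 on 8, MCM6 on 2 and MCM7 on 7. Genes around MCM5 mostly had fitted differences below 0, a pattern already known from an earlier look at these data. Of 19 tested genes that start within 2 Mb, 13 were below 0 and 6 above, and 6 were lower with no overlap. Over all genes tested, 53.3% were below 0 and 4.35% were lower with no overlap. The median of the 19 genes was -0.14 (by knockdown library -0.24, -0.11 and -0.095 from the control mean), beside the -0.11 of MCM5. That median includes genes with low controls that passed the filter through knockdown libraries, named below. Within 5 Mb, 71 of 86 genes were below 0 and 28 were lower with no overlap, with a median of -0.17. Within 1 Mb the median was 0.18 over 10 genes, and 4 of the 10 are APOL genes, which interferon is known to induce. Whether interferon had a part in that median was not tested.

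The nearest pair of tested genes on each side of MCM5 had differences of both signs. TOM1, an endosomal sorting protein, had a difference of -0.14 (SE 0.14), and HMOX1, the haem-degrading enzyme, 0.052 (SE 0.43). On the other side RASD2 had 0.30 (SE 0.42), at 0.788, 0.818 and 0.981 FPKM (controls) against 0.444, 0.770 and 3.74 FPKM (knockdown). APOL6 read 0.221, 0.0184 and 22.8 FPKM in the knockdown libraries against at most 0.00571 FPKM in any control. RASD2 and APOL6 were above 1 FPKM only in knockdown replicate 4, so they entered the test through that library. APOL1 and APOL3 averaged 0.56 and 0.53 over all libraries on the log2(FPKM + 1) scale, with differences of 1.09 and 1.06. Their controls therefore lay near 0, and knockdown libraries carried them past the filter. RASD2, APOL6, APOL1 and APOL3 all count among the genes above 0 within 1 Mb and 2 Mb. HMGXB4, named after its values were seen, starts 0.143 Mb before MCM5, nearer than APOL6, and was lower with no overlap, with a difference of -0.15 (SE 0.074). Without the APOL genes, a choice made after the values were seen, the median within 2 Mb was -0.21 over 15 genes. By knockdown library it was -0.27, -0.14 and -0.27 from the control mean. None of the named neighbours passed the threshold (adjusted p = 0.9998, limma). CDC45, a helicase partner nearer the other end of the same arm at 19479459 and singled out after its values were seen, was at 24.3 ± 1.83 and 23.1 ± 2.55 FPKM (SD, n = 3 each), a difference of -0.070. For the other 9 members the median of neighbours within 2 Mb lay between -0.05 and 0.03, except for GMNN, at 0.14. The neighbours of GMNN had medians of 0.037, -0.079 and 0.34 by knockdown library, the highest in replicate 4, whereas GMNN itself had a difference of -0.015.

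**Figure D4:**
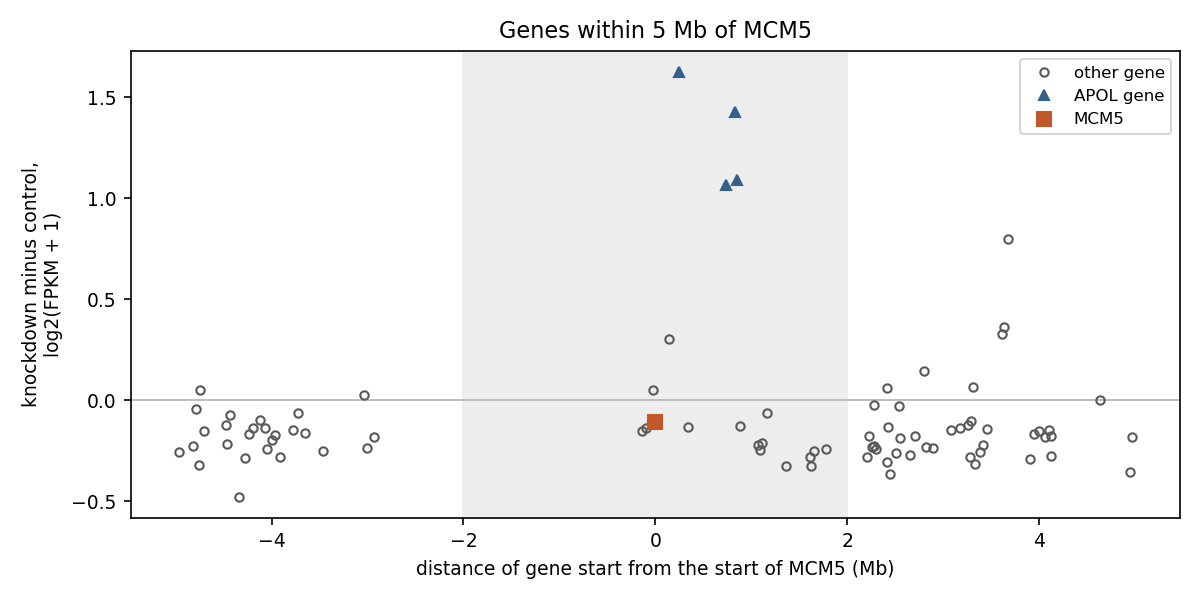
Knockdown minus control on the log2(FPKM + 1) scale for the 86 tested genes within 5 Mb of MCM5, against the distance of their start from that of MCM5; triangles are APOL genes, the square is MCM5 and the shaded band is 2 Mb to each side. Points on both sides lie mostly below 0, with the 4 APOL genes above 1.

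None of the 105 tested genes in lists of related replication machinery passed the threshold over all genes. Groups did not overlap for 7 of them (6.67%), against 8.36% of all genes tested. The origin recognition complex, which marks the origin, had a median difference of 0.078 over 6 genes, 4 above 0 and 2 below, none without overlap; ORC3, ORC4 and ORC6 were at 0.12, 0.089 and 0.10. Of 13 origin firing factors, which turn the loaded ring into a moving helicase, 9 were above 0, with a median of 0.03. The GINS subunit GINS4 was the 1 gene of these without overlap, with 8.58 ± 0.38 FPKM (controls) against 9.86 ± 1.10 FPKM (knockdown; SD, n = 3 each; difference 0.18, adjusted p = 0.9998, limma).

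Among 5 tested genes of the other MCM-named and MCM-binding proteins, 4 were above 0, with a median of 0.08. MCM9, a helicase of recombination and no part of the ring, was at 2.56, 2.95 and 3.11 FPKM (controls) against 3.39, 3.49 and 3.52 FPKM (knockdown). The groups of MCM9 did not overlap, and its difference was 0.21 (SE 0.10; unadjusted p = 0.0703 and adjusted p = 0.9998, limma). In the replisome list, which holds the polymerases, clamp and clamp loader, 16 of 31 genes were above 0 and 15 below, with a median of 0.003. POLD1, the catalytic subunit of polymerase delta, and TIMELESS, of the fork protection complex, were higher with no overlap by 0.07 each.

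Control of licensing by kinases and ubiquitin ligases gave 8 of 15 genes above 0 and a median of 0.01. DTL, the adaptor of the ligase that destroys CDT1 in S phase, was at 30.7, 31.7 and 29.1 FPKM (controls) against 32.7, 32.4 and 34.8 FPKM (knockdown). Its groups did not overlap, as with CDT1, and the difference was 0.12 (SE 0.07; adjusted p = 0.9998, limma). FZR1, an activator of the anaphase-promoting complex in G1, also did not overlap, with a difference of 0.04. The E2F, RB and G1 list had 11 of 23 genes above 0 and a median of -0.003, with none free of overlap. On the difference scale E2F3 was at 0.11 (SE 0.08), the cyclin CCND3 at 0.20 (SE 0.14) and the kinase inhibitor CDKN1A at 0.25 (SE 0.16). CDKN1A lay close to the filter of 1 FPKM, at 0.948 ± 0.317 FPKM in controls and 1.295 ± 0.136 FPKM after knockdown (SD, n = 3 each). E2F1, singled out after its values were seen, averaged 77.1 ± 5.87 FPKM (controls) against 74.2 ± 9.68 FPKM (knockdown; SD, n = 3 each).

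Genes of nucleotide supply and S-phase chromatin had 9 of 12 members below 0, with a median of -0.03. DUT, which removes dUTP before it can enter DNA, was the only gene of the replication lists with all knockdown values below the controls. It was at 142, 141 and 140 FPKM (controls) against 123, 132 and 130 FPKM (knockdown), a difference of -0.14 (SE 0.07, 95% interval -0.30 to 0.02; adjusted p = 0.9998, limma).

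**Figure D5:**
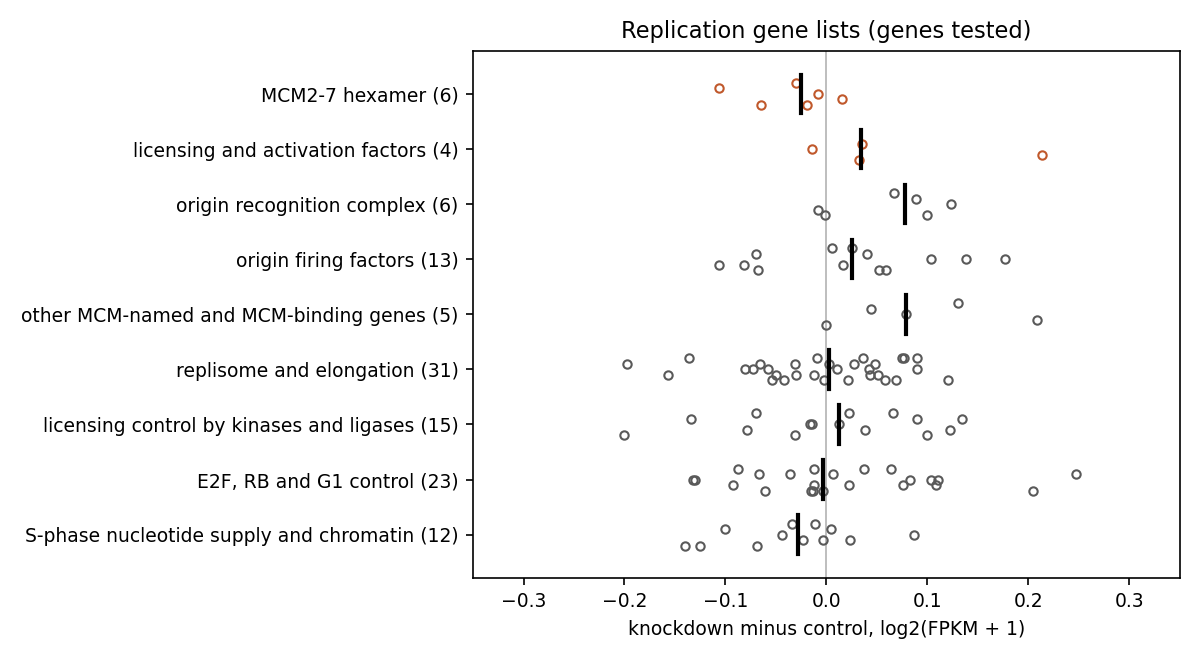
Knockdown minus control on the log2(FPKM + 1) scale for each tested gene of 9 replication lists (circles; the members in orange), with the median of each list as a black bar. Medians lie between -0.03 and 0.08, and single genes between -0.20 and 0.25.

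The 5 genes outside the lists whose pattern over the 6 libraries was most like the mean of the 10 members were RMND5B, ACYP1, SSSCA1, ARHGEF40 and ZW10, among 8976 genes averaging at least 5 FPKM. Their Pearson r over the same 6 libraries was 0.978 to 0.990, given as a description of these libraries. All 5 had their lowest value in control replicate 4, where the mean of the members was also lowest. That mean joins members of unlike patterns, with Pearson r between pairs from -0.906 (MCM3 and GMNN) to 0.933 (MCM5 and MCM7). ARHGEF40, a guanine nucleotide exchange factor, was at 8.61, 8.17 and 6.78 FPKM (controls) against 7.96, 7.97 and 7.70 FPKM (knockdown).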

How the data were processed

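The authors deposited FPKM values, 1 column per library, for 26372 genes. TopHat2, Cuffdiff and build hg38 are named in the submitters' processing notes; versions, annotation and strand handling were not found in the sources. Because FPKM is scaled to the mapped total, a few abundant transcripts that rise lower all others. FPKM values are not counts, and no count model was run. Depth in reads is unknown; steps between low values gave depths of 0.972 to 1.36 relative to control replicate 3.

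Genes averaging at least 1 FPKM (12164) were compared as log2(FPKM + 1), which understates changes of low genes, with limma 3.58.1 in R 4.3.3 (eBayes with trend, two-sided, no covariate, Benjamini-Hochberg adjustment over all genes). The steps were tested on simulated data with changes of 0.5, 1.0, 2.0 or 3.0 log2 shared out among 200 of the more abundant genes. Of the genes given 0.5 log2, 56% were recovered, and of those given 1.0, 100%. The simulation gave all genes and libraries a single spread, taken from the controls, and held no library like knockdown replicate 4. It therefore does not give the recovery in the real libraries, where MIAT was not called. Members and lists were chosen with earlier results of these data known; 1 list gene (HROB) was matched by an older symbol. Named are the 10 members, MIAT, in each other list the genes without overlap or else the 3 with the smallest p, the nearest pair of tested genes on each side of MCM5 and the 5 most alike. Marker and interferon lists are given as sums, with some markers named. Coordinates are GENCODE release 29 (GRCh38), matched for 94.6% of tested genes. Alternatives were a pseudocount of 0.1, no low-value filter or one at 5 FPKM, upper-quartile and quantile scaling, no trend, library weights, the replicate block, each library left out, both libraries numbered 4 left out, and for neighbours windows of 1 and 5 Mb. Some marker genes are not reported here by name.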

Additional observations from a re-analysis of the deposited data

How the results depend on the processing

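In 15 alternative settings of the fit across genes 0 of 10 members passed the threshold. Genes past it over the whole table numbered 0 in the fit reported, 22 with library weights and 1 with both libraries numbered 4 left out; MIAT passed in those settings (log2 -1.58, adjusted p = 0.003 and log2 -1.54, adjusted p = 0.015, limma). The weights ran from 0.153 for knockdown replicate 4 to 7.98 for control replicate 3. The replicate numbers paired the libraries only in part. The correlation of deviations over genes was 0.092, 0.168 and 0.322 for numbers 2, 3 and 4, and that of number 4 was the highest of any pair. Control replicate 2 correlated best with knockdown replicate 3, at 0.318, and control replicate 3 with knockdown replicate 2, at 0.206. The fit reported leaves out what the libraries numbered 4 share. For MIAT the SE was 0.27 in that fit and 0.11 with the replicate block (adjusted p = 0.194, limma). With the replicate block 0 genes passed, 520 had an unadjusted p under 0.05 in place of 263 (1 member in place of 0; 3 members and 2854 genes with library weights, 1 member and 753 genes without both libraries numbered 4), CDT1 kept 0.21 (adjusted p = 0.894, limma) and the MCM5 ratio kept -0.087 (exact sign-flip permutation p = 0.75).

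Members within 0.1 of 0 turned direction in places. MCM4 was 0.010 under quantile normalization and MCM6 was 0.00059 without both libraries numbered 4. With 1 library left out, MCM3 ran from -0.026 to 0.070, MCM4 from -0.064 to 0.040, MCM6 from -0.065 to 0.034, MCM10 from -0.019 to 0.077, CDC6 from -0.046 to 0.11 and GMNN from -0.12 to 0.046. MCM2, MCM5, MCM7 and CDT1 kept their direction in all 15 settings, with MCM5 from -0.20 to -0.046 (adjusted p from 0.0836 to 1) and CDT1 from 0.10 to 0.28 (adjusted p from 0.0921 to 1). The median of the members ran from -0.051 to 0.034, and the MCM5 ratio from -0.18 to -0.026 (exact permutation p from 0.2 to 0.8). The -0.18 came without both libraries numbered 4, where the exact permutation p of 0.333 was the smallest that so few libraries allow. Members lower without overlap numbered 0 to 2 with 1 library left out (MCM5 and MCM7 without control replicate 4, MCM2 without knockdown replicate 4) and 3 without both libraries numbered 4. Over all genes such shares were 10.8%, 11.6% and 19.3% in those 3 settings.

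Neighbour medians that moved by more than the spread between libraries were those of MCM5 (0.18 within 1 Mb, -0.22 at a mean of at least 5 FPKM and, added after the data were seen, -0.21 without APOL genes), MCM3 (0.020 within 1 Mb and -0.022 within 5 Mb), MCM10 (-0.083 and -0.027) and CDC6 (0.0063 within 5 Mb). The cause was not tested. With 3 libraries a group, the 95% intervals of the members were 0.30 to 0.54 wide on the log2 scale.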

Other observations

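Of the 10 licensing genes 3 face a protein-coding gene across a start region, read from the opposite strand within 1000 bases in GENCODE, and none of the 3 partners passed the threshold; they were chosen after values had been seen. PRKDC, which encodes the catalytic subunit of a DNA repair kinase and starts 2 bases from MCM4, was at 36.2, 42.2 and 47.9 FPKM (controls) against 53.3, 41.3 and 35.3 FPKM (knockdown replicates 2, 3 and 4). Its lowest and highest values were both in knockdown libraries, and its difference was 0.028 (SE 0.17; adjusted p = 0.9998, limma). TPRA1, whose first bases overlap those of MCM2, was at 9.13 ± 0.72 FPKM (controls) against 10.1 ± 1.06 FPKM (knockdown; SD, n = 3 each), a difference of 0.13, while MCM2 differed by -0.019. AP4M1, a subunit of a membrane traffic adaptor that overlaps the start of MCM7, was at 4.04 ± 0.65 and 4.33 ± 0.57 FPKM (SD, n = 3 each), a difference of 0.082. Strand handling is not stated, so reads in the overlaps with MCM2 and MCM7 cannot be told apart from those of the partner.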
